A study of Mus musculus with 6 samples.

Results

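The genes described here are 35 mouse genes that type I interferon is known to switch on, read from Illumina bead arrays of luminal uterine epithelium, the cell layer that lines the uterine cavity and meets the embryo. Members were the array probes that name one of the 35 genes, and for each gene the brightest probe above background was used. All 35 genes had a probe on the array, 32 of them under their own symbol. That count includes Ifi27, whose probe of that name carries the accession of its relative Ifi27l2a and was not used. Of them, 28 were measured, meaning above background (detection p under 0.05) on at least 3 of the 6 arrays, and they are 28 of 11922 genes measured in all. Every member whose 6 values differ by more than 1 log2 unit is given array by array, so that differences between single arrays can be seen beside the difference between genotypes.

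The tissue was taken at 3.5 dpc (days post coitum). The groups were 3 Control arrays (A, B and C) and 3 CKO arrays (D, E and F). CKO females were Alk3 flox/flox, with loxP sites around an Alk3 exon for part of the extracellular domain, and Pgr cre/+, with Cre knocked in at the progesterone receptor locus. The sources used here do not give the alleles of the Control mice. Alk3, named Bmpr1a on the array, encodes a receptor for bone morphogenetic proteins (BMPs). Both groups were on a mixed C57BL/6J and 129S5/SvEvBrd background, and all 6 arrays were on 1 chip. Cre from this locus acts in cells that express the progesterone receptor, which in the uterus include stroma and muscle as well as epithelium. No label states the method of isolation or ties an array to 1 animal, so p-values measure only the spread between these samples, which may be technical. Letters are places on the chip, the first 3 with Control RNA and the last 3 with CKO RNA, so place and genotype cannot be told apart.

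Type I interferons bind a receptor of the chains Ifnar1 and Ifnar2, which activates the kinases Jak1 and Tyk2. These phosphorylate Stat2, which with Irf9 is part of a factor that binds the interferon-stimulated response element (ISRE) in promoters. The genes it switches on include sensors of viral RNA, oligoadenylate synthetases, proteins that block viral entry, translation or budding, and regulators of the pathway itself. In the female tract the epithelium makes its own type I interferon, interferon epsilon (Ifne), under hormonal control.

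The sequence these genes are known to share was looked for in RefSeq promoter windows (GRCm38.p6, 250 bases before to 50 after the gene's start), which were matched for 24 of the 35 genes. The core of the ISRE was searched as GAAANNGAA on both strands, matches that overlap each other included. It was found in 15 of the 24 genes (62.5%), against 2638 of 27025 genes in the table (9.76%). At least 2 matches were found in 10 of the 24, against 199 of 27025 (0.736%). The gamma-activated site, searched as TTCNNNGAA on both strands, was found in 6 of the 24 (25%), against 2582 of 27025 (9.55%). The 160 bases before the start are shown for 5 genes with matches that differ in number and place, and for Irf7 as a member without one; capitals mark the ISRE core matches, and a run that opens with TTC is the core read on the other strand.
Isg15 (chr4:156200819-156200978, minus strand): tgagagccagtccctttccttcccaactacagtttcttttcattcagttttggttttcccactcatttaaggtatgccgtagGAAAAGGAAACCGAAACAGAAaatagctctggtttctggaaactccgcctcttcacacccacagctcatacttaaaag
Rsad2 (chr12:26456453-26456612, minus strand): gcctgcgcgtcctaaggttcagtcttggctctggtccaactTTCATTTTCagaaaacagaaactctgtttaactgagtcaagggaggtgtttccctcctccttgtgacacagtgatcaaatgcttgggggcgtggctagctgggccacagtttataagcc
Oas1g (chr5:120887614-120887773, minus strand): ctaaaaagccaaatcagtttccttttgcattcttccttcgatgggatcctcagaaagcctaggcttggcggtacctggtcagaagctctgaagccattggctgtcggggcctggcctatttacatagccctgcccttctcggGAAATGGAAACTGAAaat
Ifit3 (chr19:34583369-34583528, plus strand): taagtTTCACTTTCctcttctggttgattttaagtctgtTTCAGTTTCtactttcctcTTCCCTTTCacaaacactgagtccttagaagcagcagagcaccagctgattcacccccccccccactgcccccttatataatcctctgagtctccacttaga
Bst2 (chr8:71537473-71537632, minus strand): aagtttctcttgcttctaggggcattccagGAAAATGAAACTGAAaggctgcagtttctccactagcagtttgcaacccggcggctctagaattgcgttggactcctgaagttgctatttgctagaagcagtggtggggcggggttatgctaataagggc
Irf7 (chr7:141266425-141266584, minus strand): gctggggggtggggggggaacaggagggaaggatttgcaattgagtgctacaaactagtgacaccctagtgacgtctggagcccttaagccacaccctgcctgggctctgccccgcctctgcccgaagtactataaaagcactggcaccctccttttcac
The stretch of Isg15 holds 3 overlapping matches in 1 run, those of Oas1g and Bst2 hold 2 overlapping matches each, Ifit3 holds 3 separate matches and Rsad2 holds 1. A match is a description of the letters, not evidence of binding.

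Values below are normalised log2 signals, in which 1 unit is a 2-fold difference, and levels of different genes are not comparable because each probe binds with its own strength. No member passed the test between genotypes. Their signals differed more between single arrays of one genotype: Control array A and CKO array E were the high arrays for most members. The mean deviation of the 28 measured members from their own 6-array means was 0.64 on A, -0.48 on B and -0.67 on C. It was -0.12 on D, 0.56 on E and 0.06 on F.

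**Figure D1:**
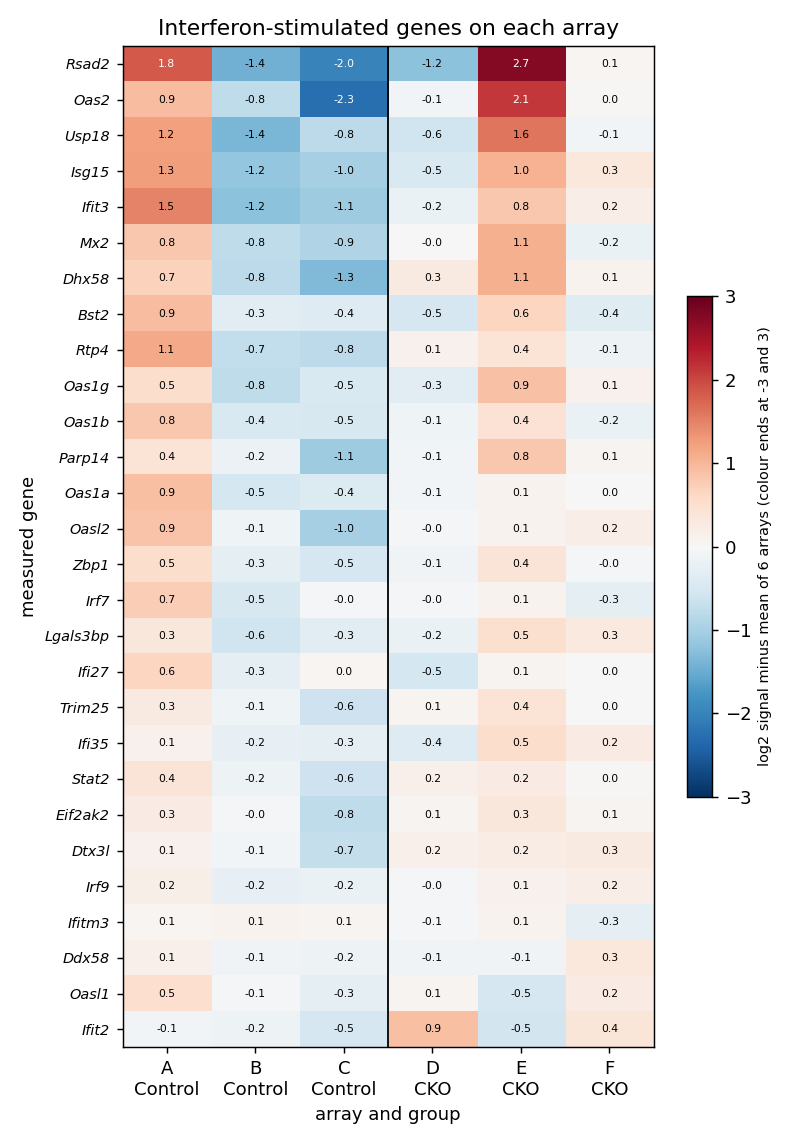
Log2 signal of each measured gene on each array, as its deviation from that gene's mean over the 6 arrays (colour and printed value); rows are 28 genes, ordered by the sum of the excess of A over B and C and of E over D and F, columns are arrays A to C (Control) and D to F (CKO). Rsad2 and Oas2 reach the highest deviations on E, and the columns of A and E are the warm ones from Rsad2 down to most of the rows, while Ifit2 and Oasl1 at the foot are low on E.

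The regulators of the pathway come first. Usp18, a protease that removes ISG15 from proteins and damps receptor signalling, read 10.92 on A, 8.34 on B and 8.91 on C, against 9.11 on D, 11.30 on E and 9.62 on F. Isg15, the ubiquitin-like modifier itself, read 11.03, 8.60 and 8.78 on A, B and C, against 9.32, 10.81 and 10.08 on D, E and F. Both genes were high on A and E, and the groups overlapped. The excess of A over the mean of B and C was 2.30 log2 units (4.93-fold) for Usp18 and 2.34 (5.06-fold) for Isg15. The excess of E over the mean of D and F was 1.93 (3.82-fold) for Usp18 and 1.11 (2.16-fold) for Isg15. A second Usp18 probe had the same shape, with an excess of 2.37 on A and 3.33 on E. The Isg15 probe is listed in the files under a provisional locus name and was assigned to Isg15 by its RefSeq gene number.

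The transcription factors moved over a smaller range. Stat2, a subunit of the factor that binds the ISRE, read 8.45, 7.90 and 7.43 on A, B and C, against 8.22, 8.30 and 8.09 on D, E and F. Irf9, the DNA-binding subunit of the same factor, read 10.14, 9.73 and 9.77 against 9.95, 10.09 and 10.16. Irf7, which amplifies interferon production, read 8.59, 7.38 and 7.81 against 7.81, 7.96 and 7.56. A was the highest Control array for all 3 factors, but the excess on E was at most 0.27 log2 units with the probes used. For these probes of Stat2 and Irf9 the CKO arrays lay close together, near the level of A, while Control arrays B and C lay lower. A second Irf9 probe, above background on all 6 arrays, read 7.14, 8.73 and 8.77 on D, E and F, with an excess of 0.77 on E. That probe also differed in sign between genotypes (-0.07 against 0.19 for the probe used), so no direction is given for it.

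Trim25, a ubiquitin ligase that activates the RNA sensor RIG-I, read 10.61, 10.21 and 9.71 on A, B and C, against 10.42, 10.74 and 10.35 on D, E and F. Its second probe differed in sign between genotypes (-0.07 against 0.32) and was highest on A. Ifi35, an interferon-induced leucine zipper protein, had means of 8.49 ± 0.22 (SD, n = 3) in Control and 8.75 ± 0.46 (SD, n = 3) in CKO, with a range of 0.90 over the 6 arrays. With the probes used, E was the highest array for both genes, by less than 1 log2 unit.

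Among the oligoadenylate synthetase family, which makes the messenger that activates RNase L, Oas2 had the widest range. It read 9.37, 7.68 and 6.19 on A, B and C, against 8.37, 10.57 and 8.48 on D, E and F. The highest array was E and the lowest was C, 20.8-fold apart. Oas1g read 10.67, 9.39 and 9.68 against 9.82, 11.03 and 10.28, and its second probe had the same 2 high arrays. Oas1a read 6.10, 4.67 and 4.80 against 5.11, 5.30 and 5.22, and was above background on 4 arrays. Oas1b read 6.00, 4.74 and 4.70 against 5.07, 5.63 and 4.996, and was above background on 3 arrays. Oas1a and Oas1b were therefore high on A, with B and C in the background, and within the CKO group they differed little or only on E. These Oas1 genes are close paralogs, and cross-hybridisation between their transcripts was not tested.

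The synthetase-like genes departed from this shape on E. Oasl2 read 11.28, 10.29 and 9.44 on A, B and C, against 10.40, 10.52 and 10.64 on D, E and F, so that it was high on A and level in the CKO group. Oasl1, which restrains translation of Irf7, had means of 6.88 ± 0.40 (SD, n = 3) in Control and 6.77 ± 0.39 (SD, n = 3) in CKO. Its excess on A was 0.66, whereas E was its lowest array, 0.66 below the mean of D and F. The second probes of both genes also had A as the highest Control array, but differed on E. The second Oasl2 probe read 6.96, 7.33 and 7.21 on D, E and F, with E highest. The second Oasl1 probe had an excess of -0.23 on E, with D and E both at 5.68, so the size of the departure depends on the probe. Oas3 was above background on array E only and was not measured.

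Of the antiviral effectors, Rsad2 (viperin, which makes a chain-terminating nucleotide) had the widest range of any member. It read 8.88, 5.58 and 5.04 on A, B and C, against 5.81, 9.77 and 7.10 on D, E and F. Array C was not above background, so the size of the excess on A depends on the background correction. It was 3.57 log2 units over the mean of B and C after normalisation, and 5.56-fold in unnormalised intensity. E was 3.32 log2 units above the mean of D and F, and 6.24-fold in unnormalised intensity. The unnormalised intensities were 575 on A, 115 on B, 109.5 on D and 925 on E. The values of Rsad2 thus fell into high (A and E), intermediate (F) and low (B, C and D) arrays that cut across genotype.

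**Figure D2:**
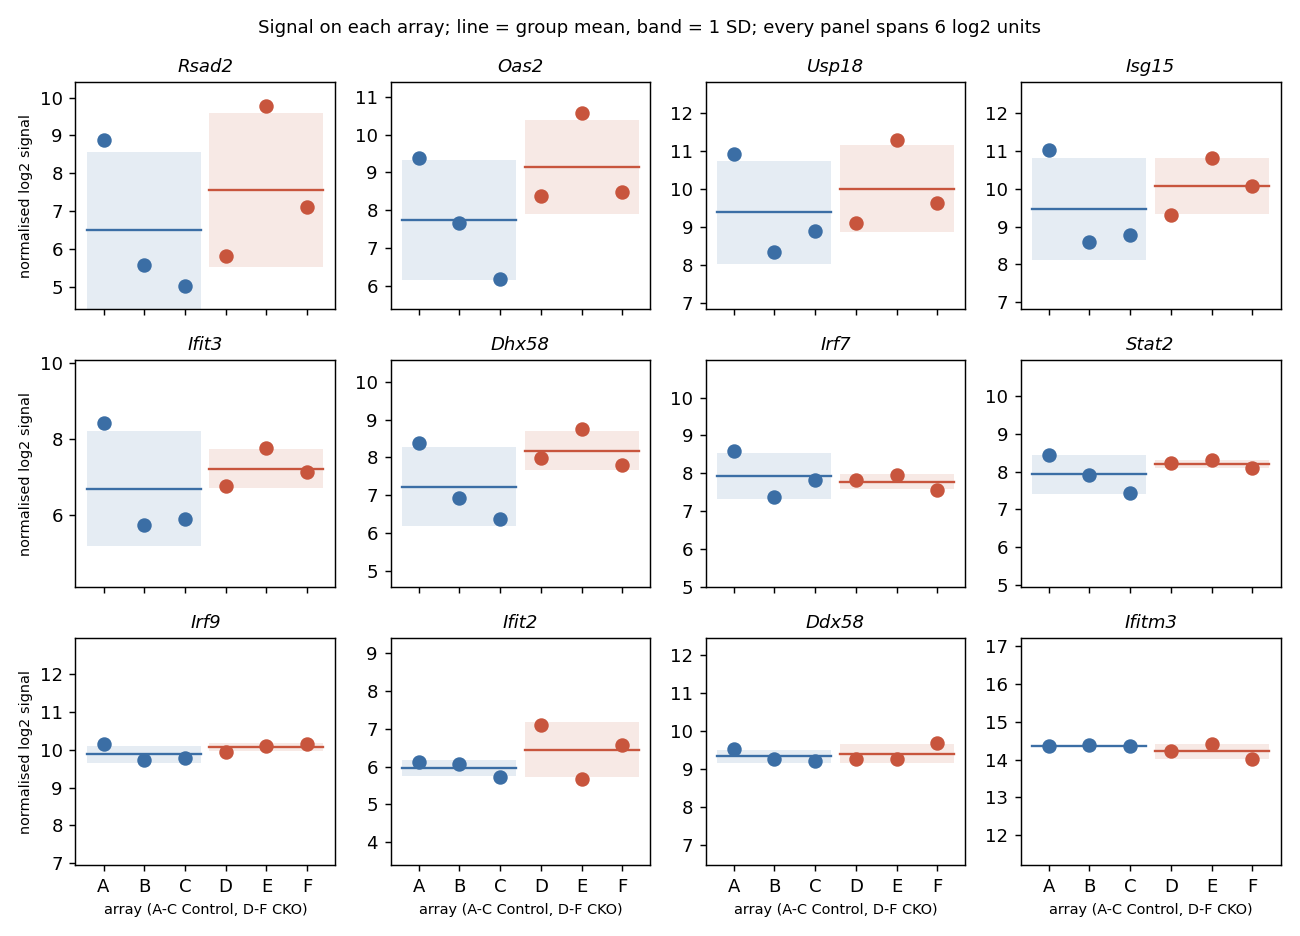
Normalised log2 signal of 12 members on each array (x axis: arrays A to C Control in blue, D to F CKO in red); lines are group means, bands are 1 SD (n = 3), and every panel spans the same number of log2 units. A and E stand above the rest for Rsad2, Oas2, Usp18, Isg15, Ifit3 and Dhx58, while Irf9, Ddx58 and Ifitm3 stay nearly level and Ifit2 is highest on D.

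Ifit3, one of the proteins that bind foreign RNA through tetratricopeptide repeats, read 8.43, 5.73 and 5.88 on A, B and C, against 6.75, 7.76 and 7.14 on D, E and F. Mx2, a dynamin-like GTPase, read 7.46, 5.89 and 5.74 against 6.63, 7.71 and 6.44. Bst2 (tetherin, which holds budding virions at the cell surface) read 10.91, 9.66 and 9.61 against 9.49, 10.63 and 9.63. For all 3, A and E were the highest 2 arrays. The excess on A was 2.63 for Ifit3, 1.64 for Mx2 and 1.28 for Bst2, and on E it was 0.81, 1.17 and 1.07. A dimmer Ifit3 probe, above background on 3 arrays, shared the excess on A (1.21), was level between E and F (5.10 and 5.15) and had the opposite sign between genotypes (-0.27 against 0.54).

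Other effectors did not share the pattern. Ifit2, a relative of Ifit3, read 6.13, 6.06 and 5.72 on A, B and C, against 7.11, 5.67 and 6.57 on D, E and F. It was highest on D and lowest on E, the reverse of Rsad2 within the CKO group, and its second probe also had E lowest and D highest, with the opposite sign between genotypes (-0.04 against 0.48). Ifitm3, which blocks entry of viruses through endosomes, was bright and level, at 14.37 ± 0.02 (SD, n = 3) in Control and 14.21 ± 0.20 (SD, n = 3) in CKO. Its range over the 6 arrays was 0.39. Ifit1 was above background on no array and Mx1 on array A only, so neither was measured.

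The RNA and DNA sensors divided likewise. Dhx58 (LGP2, a helicase that tunes RIG-I and MDA5) read 8.39, 6.92 and 6.37 on A, B and C, against 7.98, 8.76 and 7.81 on D, E and F. Its 3 probes above background all had A and E as the highest array of their group. Ddx58, which encodes RIG-I, stayed within 0.48 log2 units over the 6 arrays with the probe used. Its means were 9.33 ± 0.16 (SD, n = 3) in Control and 9.40 ± 0.25 (SD, n = 3) in CKO. Its second probe, above background on all 6 arrays, read 6.35, 6.38 and 5.90 against 6.28, 5.84 and 6.49. That probe was lowest on E and differed in sign between genotypes (-0.005 against 0.07). Zbp1, a sensor of Z-form nucleic acids, read 7.46, 6.67 and 6.44 against 6.84, 7.33 and 6.90. Eif2ak2 (PKR, the kinase that stops translation on double-stranded RNA) read 10.61, 10.33 and 9.61 against 10.45, 10.70 and 10.45. With the probes used, LGP2 thus varied over 2.39 log2 units while RIG-I, of the same helicase family, stayed within 0.48. Ifih1, which encodes MDA5, was above background on no array.

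Parp14 and Dtx3l belong to the ADP-ribosylation and ubiquitin ligase group, whose other gene here, Parp9, was above background on no array. Parp14 read 11.05, 10.45 and 9.57 on A, B and C, against 10.56, 11.44 and 10.72 on D, E and F. Dtx3l had means of 9.55 ± 0.44 (SD, n = 3) in Control and 9.99 ± 0.06 (SD, n = 3) in CKO, with a range of 0.99. It was the only measured member whose groups did not overlap, with all CKO arrays above all Control arrays. Over all genes 5.64% had that order and 4.99% the opposite one, so 1 of 28 is below the share over all genes.

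The remaining members have less defined roles. Rtp4, a receptor transporter protein that limits flavivirus replication, read 7.01, 5.13 and 5.08 on A, B and C, against 6.00, 6.27 and 5.72 on D, E and F. Lgals3bp, a secreted galectin-binding glycoprotein, read 10.88, 9.96 and 10.22 against 10.35, 11.04 and 10.85. Ifi27 read 12.00, 11.10 and 11.42 against 10.84, 11.46 and 11.39, from probes filed under an older clone name. With the probes used, A was the highest Control array and E the highest CKO array in each of these genes. On the second Ifi27 probe A was again highest, and F (10.79) lay just above E (10.74). The probe that the files name Ifi27 carries the accession of its relative Ifi27l2a, was lowest on E and was not used as a member. Ifi44 and Xaf1 were above background on no array.

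The excess of A was counted over all measured members. With the probes used, A was the highest Control array for 27 of 28 members, against 34.7% of all genes, the exception being Ifitm3. On the second probes of Ifit2 and Ddx58, A (5.98 and 6.35) was below B (6.16 and 6.38). With the probes used, A was more than 2-fold above both B and C for 11 members, against 1.94% of all genes. Those were Oas1a, Oas1b, Oas2, Dhx58, Ifit3, Isg15, Usp18, Mx2, Rsad2, Bst2 and Rtp4. The count was 7 without background correction, and 7 of 24 members when detection p under 0.01 was asked on all 6 arrays. Of the 11, Oas1a, Oas1b, Rsad2 and Rtp4 were not above background on B, C or both. No member was more than 2-fold lower on A. C was the lowest Control array for 18 of 28 members, against 35.8% of all genes. A single array has no replicate, so these counts describe the array and carry no test.

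On the CKO side, E was the highest array for 22 of 28 members, against 31.7% of all genes. It was more than 2-fold above both D and F for 5 members (Oas2, Usp18, Mx2, Rsad2 and Bst2), against 4.57% of all genes, and for 3 without background correction. All 5 were also among the 11 of array A, and 1.27% of all genes met both conditions. A and E were the highest 2 of the 6 arrays for 20 of 28 members, against 11.1% of all genes. The median excess over the members was 1.02 log2 units on A (2.03-fold) and 0.43 on E (1.35-fold), and over all genes it was -0.02 and -0.08. The excess was therefore larger on A than on E for the typical member, and Ifit2, Oasl1 and Ddx58 were below the mean of D and F on E.

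**Figure D3:**
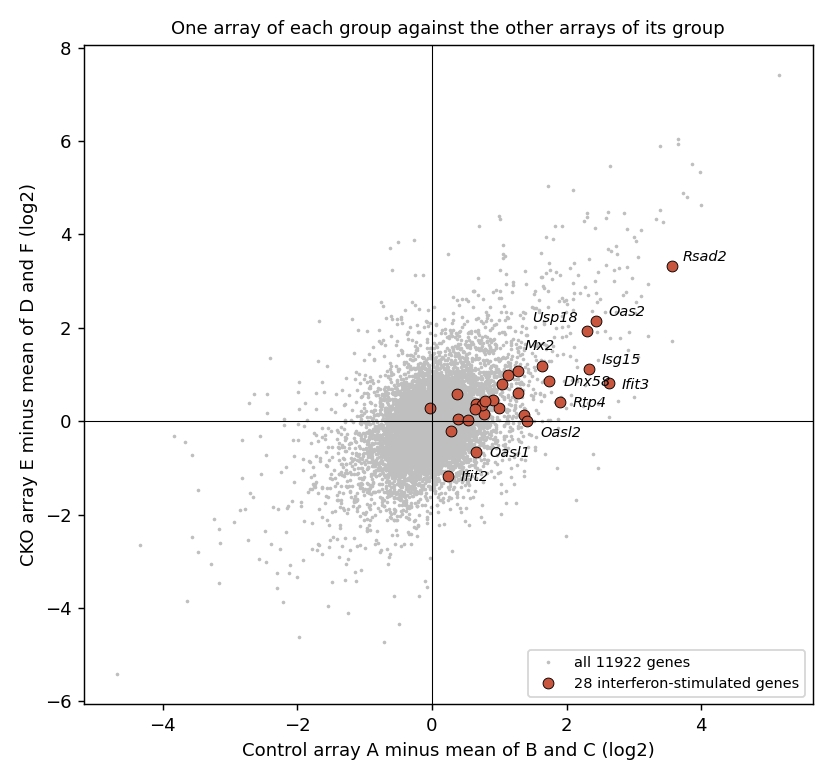
Excess of Control array A over the mean of B and C (x axis, log2) against the excess of CKO array E over the mean of D and F (y axis, log2); grey points are all 11922 genes and red points the 28 measured members. All but 1 member lie right of zero, Rsad2 lies farthest out among the members, and some genes that are not members lie farther out still.

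Array E also stood apart over the whole table, its mean correlation with the other 5 being 0.936, against 0.953 to 0.970 for the rest. Across all 11922 genes the excess on A and the excess on E were correlated (Pearson's r 0.518, Spearman's rho 0.357). Across the 28 members r was 0.808 and rho 0.716; genes are not independent replicates and share the same 6 arrays, so no p is given. Genes outside the list that moved further than Rsad2 on both arrays can be seen in the scatter plot of the excess. The likeness of A and E thus extends beyond the interferon-stimulated genes. The total RNA behind it is from bulk tissue, in which more cells of a type and more RNA per cell cannot be told apart.

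Pairs of members varied together. Over the 378 pairs of measured members the median Pearson correlation across the 6 arrays was 0.73 (quartiles 0.38 and 0.86), against 0.01 over all pairs of genes. After the group means were taken out, so that only variation within genotypes was left, it was 0.77 (quartiles 0.46 and 0.90), against 0.015 over all pairs. Each member was also set against the mean of the other members. Zbp1 (0.989), Isg15 (0.973), Ifit3 (0.970) and Mx2 (0.966) followed it most closely, and 13 of 28 had an r over 0.90. Ifit2 (-0.06), Ifitm3 (-0.04), Oasl1 (0.24) and Ddx58 (0.41) followed it least. Each such r is over 6 arrays and is given as a description.

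The question posed by the design is how loss of Alk3 changes the epithelium. Over all genes, limma with Benjamini-Hochberg adjustment called 2 higher in CKO (0.0168%), Gin1 and Cops8, and 0 lower (0%), while 324 were higher and 237 lower at an unadjusted p under 0.05. The targeted gene, Bmpr1a, was lower in CKO by 0.60 log2 units on one probe (exact two-sided permutation test, p = 0.1, the smallest that 3 against 3 arrays allow) and by 0.51 on another (exact p = 0.3). The sources used here do not say whether these probes lie in the deleted exon.

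Of the 28 members, none was called in either direction, and none had an unadjusted p under 0.05 in limma. The smallest adjusted p was 0.977. The CKO mean was above the Control mean in 23 of 28 members, against 48.3% of all genes, and the median difference was 0.30 log2 units, against -0.01 over all genes. The members vary together, so their 28 signs are not independent of each other. Without array A the median difference was 0.57, without B it was 0.16, without C it was 0.11 and without E it was 0.17.

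The widest differences came with the widest errors. Oas2 was 1.39 log2 units higher in CKO (SE 0.92, 95% confidence interval -0.80 to 3.59, adjusted p from limma 0.977). Rsad2 differed by 1.06 (SE 1.31) and Dhx58 by 0.96 (SE 0.54). Usp18 differed by 0.62 (SE 0.81) and Isg15 by 0.60 (SE 0.71). All of these intervals include 0, and those of Rsad2, Usp18 and Isg15 also include a 2-fold difference in either direction. Without array E the difference was -0.045 for Rsad2 and -0.02 for Usp18, and without array A it was 2.25 for Rsad2 and 1.39 for Usp18. Bst2, Irf7, Ifitm3, Ifi27 and Oasl1 had the lower mean in CKO, by at most 0.28, a gap within the spread of their arrays.

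**Figure D4:**
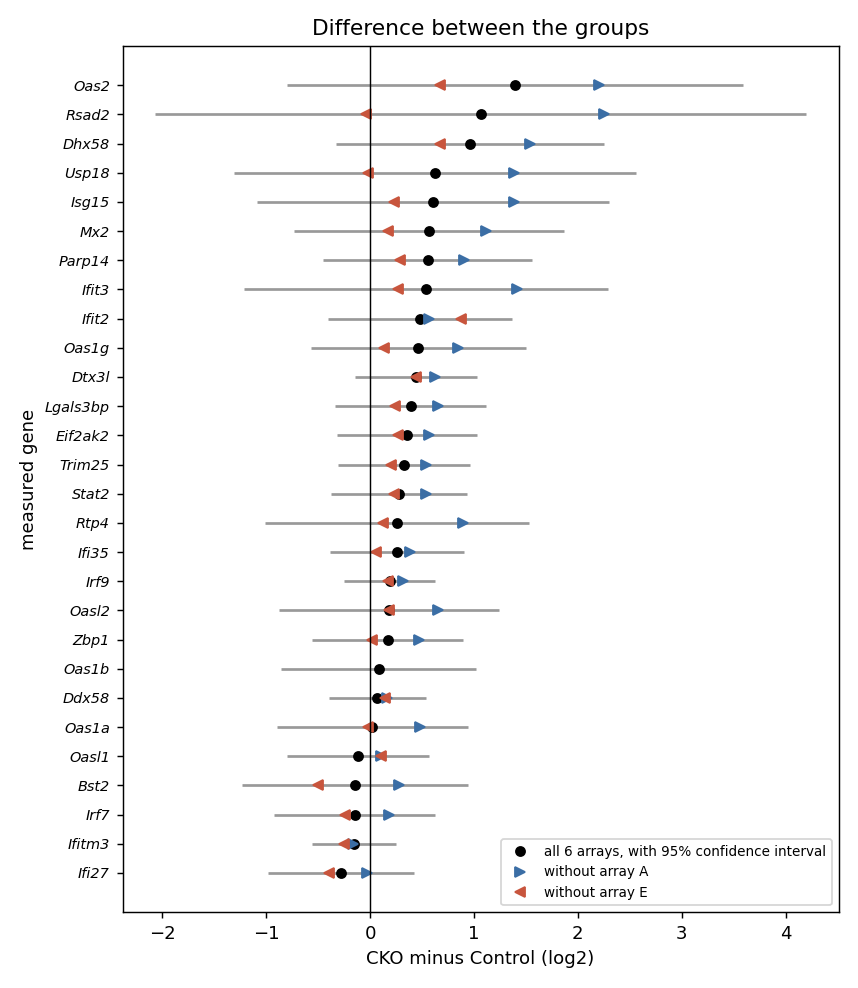
Difference between CKO and Control in log2 units (x axis) for each of 28 members (y axis); black points are estimates from all 6 arrays with 95% confidence intervals, blue triangles leave out array A and red triangles leave out array E. Every interval crosses zero, and leaving out A or E moves Rsad2 between 2.25 and -0.045; Oas1b has no triangles because without either array it was above background on too few arrays.

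The upstream genes were listed by role. Of 24 interferon and receptor genes, 9 were measured and none was called. Ifne read 7.22, 7.31 and 7.53 on A, B and C, against 6.64, 7.55 and 7.45 on D, E and F, so it was not high on A. Array E was its highest, 0.50 above the mean of D and F but close to C and F. Ifnar1 and Ifnb1 were above background on no array. Ifnar2 read 6.14, 5.69 and 5.98 against 6.37, 6.21 and 6.48, with all CKO arrays above all Control arrays and a mean difference of 0.42. Ifna1 (-0.23) and Ifngr1 (-0.26) had the opposite order, so 1 of the 9 measured genes had all CKO arrays above and 2 had all below, against 5.64% and 4.99% of all genes. The genes of this list with the widest range were Ifngr2 (1.37), Il10rb (1.37), Ifnlr1 (0.95) and Ifne (0.90), and the mean deviation of the list, over genes that differ in direction, was 0.08 on A and 0.04 on E.

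Among the 18 of 22 signal transducers and inhibitors measured, none was called. Jak1 read 7.38, 6.59 and 5.84 on A, B and C, against 7.14, 6.997 and 6.16 on D, E and F. Tyk2 stayed between 9.10 and 9.54. Jak1 was thus highest on A and lowest on C, and Tyk2 was level. Irf1, induced by both interferon classes, read 11.05, 10.72 and 10.13 against 10.86, 11.02 and 10.47, and Irf3, the constitutive factor that starts interferon production, stayed between 11.77 and 12.26.

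Socs3, a feedback inhibitor of cytokine receptors, read 9.55, 9.20 and 8.23 on A, B and C, against 9.61, 11.26 and 9.94 on D, E and F. All its CKO arrays were above Control, with a mean difference of 1.28 (SE 0.52) and an adjusted p of 0.977 in limma. Of the 18 genes measured in this list, 1 had that order, against 5.64% of all genes. Ptpn2, a phosphatase that damps cytokine signalling, was 3.84-fold higher on E than the mean of D and F and 1.49-fold higher on A than that of B and C. Stat3 had a range of 1.65 and was highest on D. Socs3 and Ptpn2 differed on E more than on A, unlike the typical member.

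Of 23 nucleic acid sensors and adaptors outside the list, 19 were measured and none was called. Sting1, the adaptor for cytosolic DNA, was 3.11-fold higher on E than the mean of D and F and 1.44-fold higher on A than the mean of B and C, though B (7.86) was above A (7.83). Cgas, the enzyme upstream of it, was 1.76-fold and 1.91-fold higher on E and A than those means, and above every other array of its group. Tlr4 was 3.17-fold above the mean of D and F on E, and on A it lay between B and C. Tank was lowest of the Control arrays on A and lay between D and F on E.

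Interferon-stimulated genes that are not members had the same 2 high arrays to a smaller extent. Of 59 listed, 35 were measured, none was called, and 22 had the higher mean in CKO, against 48.3% of all genes. The mean deviation of the 35 was 0.35 on A and 0.28 on E. A and E were the highest 2 arrays for 18 of the 35, against 11.1% of all genes. Cmpk2, a nucleotide kinase that adjoins Rsad2 in the genome, read 8.64, 5.88 and 5.71 on A, B and C, against 6.32, 9.09 and 6.46 on D, E and F. Trim30a read 7.91, 4.53 and 5.81 against 4.44, 8.30 and 7.48. It was above background on 4 arrays, 2 in each group, so the size of its range depends on the background correction. Tor3a had a range of 2.08 and Gbp7 a range of 1.88. Cmpk2 thus had the same array order as Rsad2 at its top, A and E.

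Genes best known as targets of interferon gamma were divided. Of 26 listed, 15 were measured, none was called, and their mean deviation was 0.41 on A and 0.50 on E. A was the highest Control array for 12 of the 15 and E the highest CKO array for 8, and A and E were the highest 2 arrays for 7. The shares over all genes were 34.7%, 31.7% and 11.1%. On E, 2 of the 15, Gbp2 and Gbp3, were more than 2-fold above both other arrays of the group, against 4.57% of all genes and 5 of the 28 members. Gbp2, a guanylate-binding GTPase, read 10.12, 7.96 and 7.61 on A, B and C, against 8.36, 11.58 and 7.86 on D, E and F. Gbp3 read 9.89, 7.72 and 7.13 against 8.07, 11.20 and 7.93. Gbp2 was 11.0-fold higher on E than the mean of D and F, more than any member. Psmb8, an immunoproteasome subunit, had a range of 2.43 and Tapbp, of antigen loading, a range of 2.18; both were lowest on D. Many of these genes respond to both interferon classes, and the lists do not separate the classes.

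**Figure D5:**
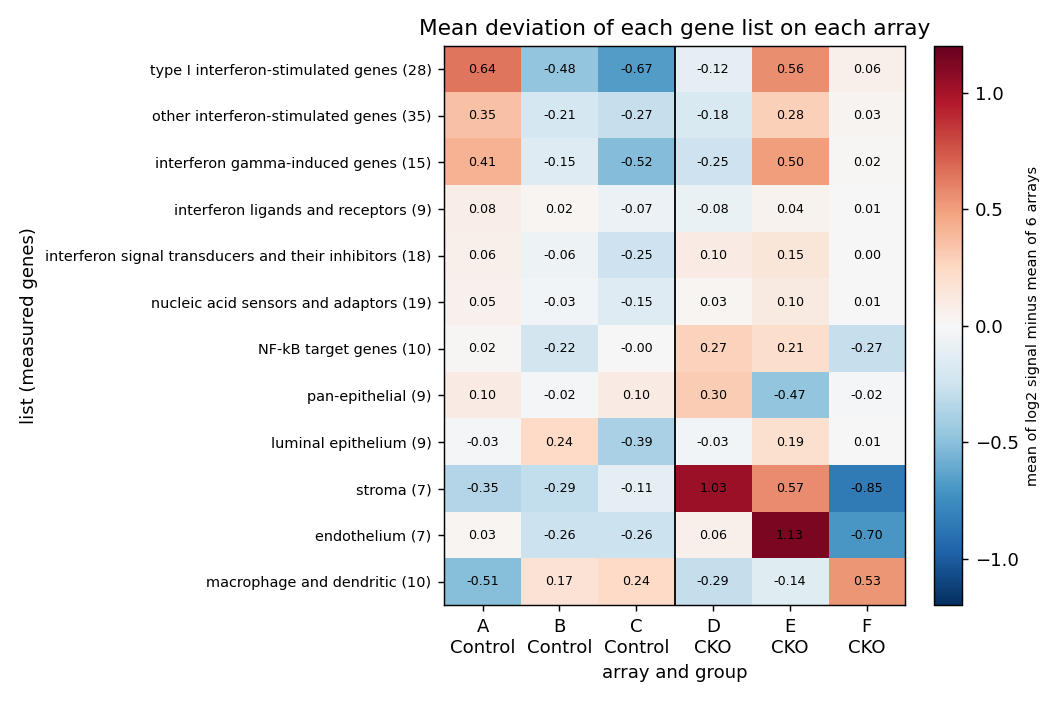
Mean deviation of each gene list on each array (colour and printed value: log2 signal minus the gene's 6-array mean, averaged over the measured genes, whose number follows each name); columns are arrays A to C (Control) and D to F (CKO). The 3 lists of interferon-induced genes have their highest means on A and E, the ligands and receptors stay within 0.08 of zero, and endothelial genes reach 1.13 on E.

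NF-kB target genes, a second inflammatory programme, did not share the members' excess on A. Of 20 listed, 10 were measured and none was called, and their mean deviation was 0.02 on A and 0.21 on E. The CKO mean was above the Control mean in 8 of the 10, with a median difference of 0.21. It was so in 11 of the 15 interferon gamma-induced genes and 23 of the 28 members, against 48.3% of all genes. Higher means in CKO were thus not particular to the members. Cxcl1, a neutrophil chemokine, had all CKO arrays above Control, by a mean of 0.73 (SE 0.30, adjusted p from limma 0.977). Of the 10 genes measured, 1 had that order, against 5.64% of all genes. Tnfaip2 was 5.23-fold higher on E than the mean of D and F and lay between B and C on A, Icam1 was highest on D and Nfkbia ranged over 1.38. Of the inflammatory cytokines listed, Tnf, Il1a, Il1b and Il6 were not measured.

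Markers of cell types were set beside these values. Of the luminal epithelial markers 9 of 10 were measured, the exception being Calb1, and of the pan-epithelial markers 9 of 10, the exception being Epcam. Pan-epithelial markers such as Krt8 and Cldn3 were bright on all arrays, with a mean deviation of 0.10 on A and -0.47 on E, where Krt19 read 8.77 against 10.48 to 11.78 elsewhere. Endothelial markers (7 of 8 measured) had a mean deviation of 0.03 on A and 1.13 on E, and 5 of the 7 were more than 2-fold higher on E than on D and F. Macrophage and dendritic markers (10 of 15 measured) were at -0.51 on A and -0.14 on E, so their list mean was lowest on A, over genes that differ in direction. A was the highest Control array for 1 of the 10, Cd68, which read 7.42, 6.61 and 7.30 on A, B and C, against 6.51, 7.86 and 6.86 on D, E and F. A and E were thus its highest 2 arrays, while Lyz2 was lowest on D. Stromal markers (7 of 10 measured) were at -0.35 on A, 0.57 on E and 1.03 on D. Over single arrays the macrophage list ran from -0.51 to 0.24 in Control and from -0.29 to 0.53 in CKO, and the endothelial list from -0.26 to 0.03 and from -0.70 to 1.13.

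Smooth muscle markers (3 of 7 measured) were at 0.87 on A and 0.66 on E, mainly through Acta2, which read 10.98, 7.96 and 6.86 on A, B and C, against 8.86, 9.61 and 6.91 on D, E and F. Lymphocyte markers were largely below background, with Ptprc and Cd3e not measured, as were Adgre1 and Itgax among macrophage and dendritic markers. Glandular markers (7 of 9 measured) were at 0.19 on A and 0.97 on E, over genes that differ in direction. A and E were the highest 2 arrays for 2 of the 7, Prss29 and Spink1, against 11.1% of all genes. Prss29 read 8.27, 5.23 and 4.53 on A, B and C, against 4.59, 10.53 and 4.69 on D, E and F. It was above background on 3 arrays. Spink1 read 12.08, 10.33 and 8.03 against 8.19, 11.41 and 8.01. A was not the highest Control array for any other glandular marker measured. As list means, the smooth muscle, glandular and endothelial markers had positive deviations on both A and E, the endothelial one only 0.03 on A. The smooth muscle mean on A came from Acta2, since Des and Mylk differed from the mean of B and C by -0.06 and 0.08. None of this holds for every single marker of a list. The part of the markers that move with E or A in the excess of the members was not tested.

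By likeness over the 6 arrays, the 10 non-member genes closest to the mean of the members were Ccdc24 (r = 0.988), Tppp3 (0.987), Plekhd1os (0.987), Ftsj3 (0.983), Mlxipl (0.982), Rbfox2 (0.981), A530079E22Rik (0.979), Rhob (0.976), Snrnp25 (0.975) and Klf4 (0.968). None of the 10 is in a list used here. Tppp3, for instance, read 6.91, 4.81 and 4.74 on A, B and C, against 5.55, 6.89 and 5.62 on D, E and F. Tppp3, Plekhd1os and A530079E22Rik were each above background on 4 arrays, only 1 of them Control, so their likeness rests partly on background values. Rhob, a small GTPase, read 9.52, 8.76 and 8.40 against 8.81, 9.53 and 8.96. Among the 100 most alike genes, 5 were other interferon-stimulated genes (Cmpk2, Trim21, Sp100, Phf11d and Helz2) and 1 was the RNA editor Adar. The median likeness of the 35 other interferon-stimulated genes was 0.63, against -0.08 over all genes. That of the 15 interferon gamma-induced genes was also 0.63, so it was not particular to the former list. It was 0.33 for signal transducers and inhibitors, 0.28 for ligands and receptors, 0.25 for NF-kB target genes and 0.10 for sensors and adaptors. The rest of the 100 are in none of the pathway lists.

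The promoter matches were set beside the array excess as a description. Of the 11 members more than 2-fold higher on A, 5 had a RefSeq window (Bst2, Ifit3, Isg15, Oas1a and Rsad2), and all 5 windows held the ISRE core. Of the other 17 measured members, 14 had a window, and 6 held it (Ddx58, Eif2ak2, Ifitm3, Oas1g, Stat2 and Trim25). Ifitm3 and Ddx58 hold it and were level over the arrays with the probes used, while Irf7, Irf9, Oasl2 and Ifit2 do not hold it in this window. No match says only that these letters are not in these bases.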

How the data were processed

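RNA from isolated epithelium was hybridised to Illumina mouse bead chips, 1 array a sample. The authors deposited, per the file headers, a mean bead intensity, a detection p-value, a bead number and a bead standard error (2 values of other kinds) for 45281 probes on each array. Scanner software and settings are not given in the sources used here. Median bead numbers were 39 to 42, and 16620 to 17536 probes were above background per array; the number of arrays limits the precision.

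Background was removed by normexp, with control levels inferred from the detection p-values and 16 added, before quantile normalisation and log2 (neqc, limma 3.58.1, R 4.3.3). Probes with detection p under 0.05 on at least 3 arrays were kept (17291), and the brightest per gene was used. Probes were named by RefSeq accession, gene number or symbol. CKO was compared with Control by lmFit and eBayes over 11922 genes, with Benjamini-Hochberg adjustment at 0.05; the fit was tested on simulated data. Members and lists were chosen with earlier results of these data known. Named genes were members with a range over 1 log2 unit, pathway genes with the widest range and chosen transducers, and the 10 genes most like the members. A total of 17 alternatives were run. Some genes that these rules would name are not reported here.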

Additional observations from a re-analysis of the deposited data

How the results depend on the processing

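No member was called under any alternative (smallest adjusted p from limma 0.334). Genes called higher in CKO over the whole table fell from 2 to 1 with normexp without controls (offset 50), without background correction, with median scaling, with cyclic loess and from the deposited intensity values, to 0 without a filter on dim probes and with detection p under 0.01 on all 6 arrays, and rose to 5 with array weights; leaving out 1 array gave 0 to 1. Without arrays A and E together, chosen after seeing the data, it was 0, with a member median difference of 0.51 and 23 of 26 members higher. Members more than 2-fold higher on A numbered 7 without background correction and 7 of 24 under the strict filter; those on E numbered 3 with normexp without controls and 3 without background correction. Array weights turned Ifi27 to 0.064, Irf7 to 0.019 and Oasl1 to 0.16, and leaving out A and E turned Irf7 to 0.091 and Oasl1 to 0.32. With 1 array left out, 11 of 28 members changed sign. The range was -0.50 to 0.28 for Bst2, -0.075 to 0.16 for Ddx58, -0.42 to 0.18 for Irf7, -0.24 to 0.48 for Oas1a and -0.14 to 0.20 for Oas1b. It was -0.28 to 0.10 for Oasl1, -0.27 to 0.66 for Oasl2, -0.045 to 2.25 for Rsad2, -0.071 to 0.90 for Rtp4, -0.022 to 1.39 for Usp18 and -0.040 to 0.47 for Zbp1. The cause was not tested. No paired analysis was possible because the replicate letters are not shared between the groups.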
